A study of Mus musculus with 23 samples.

Results

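The miR-379/410 cluster is a dense run of microRNA (miRNA) genes in the imprinted Dlk1-Dio3 domain of mouse chromosome 12. Its members were taken by name from the deposited tables as both arms of 29 hairpins, from miR-379 to miR-410, which gave 58 of the 1915 miRNA names counted. All 58 were in the tables, and 52 had enough reads to be tested. The 6 others were miR-494-5p with 5 reads in all 23 libraries together, miR-668-5p with 24, miR-376c-5p with 35, miR-496a-5p with 48, miR-410-5p with 70 and miR-541-3p with 77. The study sequenced small RNA from dissected brain of C57BL/6 mice, wild type or knockout for the locus of Cdr1as, a circular RNA of neurons that binds miR-7. Cerebellum, cortex, hippocampus and olfactory bulb each had 3 wild type and 3 knockout libraries, except that knockout hippocampus had 2. The 8 groups are the 4 regions in the 2 genotypes, and no treatment or age is stated for any of them. The labels do not say whether libraries came from separate animals, so p-values measure only the spread between these libraries.

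Imprinting silences 1 of the 2 parental copies of a gene, and in this domain the miRNAs are made from the maternal copy, where they are cut from long noncoding transcripts that carry many hairpins in a row. A hairpin is processed into a duplex of a 5p and a 3p strand, and usually 1 of these is loaded into Argonaute and kept. The loaded strand finds its target mRNAs mainly through its seed, bases 2 to 8. The cluster is known for its expression in brain, its induction by neuronal activity through Mef2 and its part in the growth of dendrites, in which miR-134 restrains spine size by repressing Limk1.

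In the RefSeq annotation of GRCm38.p6 the 29 hairpins lay on the plus strand at chr12:109709060-109743795, a span of 34.74 kb. Host genes came from the GENCODE annotation of that build. There the first 18 hairpins, miR-379 to miR-544, lay in no annotated host gene on that strand. The last 11, miR-382 to miR-410, lay within the long noncoding RNA gene Mirg, 4 of them in exons (miR-134, miR-485, miR-377 and miR-410) and 7 in introns. The authors' reads were mapped to another build, so these places were matched by name alone. Mature sequences from the same RefSeq tables were matched for 54 of the 58 members, with lengths of 20 to 25 bases. The 5 most abundant members are shown first, because they set the summed level of the cluster. Capitals mark the seed.
miR-411-5p: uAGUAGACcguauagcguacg
miR-381-3p: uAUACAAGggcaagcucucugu
miR-410-3p: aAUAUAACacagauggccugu
miR-541-5p: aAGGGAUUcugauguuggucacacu
miR-300-3p: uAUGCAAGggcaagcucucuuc
The next are the arms whose region pattern or arm balance departed from that of the cluster, with miR-134-5p as the member best known at synapses.
miR-369-5p: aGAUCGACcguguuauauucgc
miR-369-3p: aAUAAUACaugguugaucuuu
miR-409-5p: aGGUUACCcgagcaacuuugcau
miR-409-3p: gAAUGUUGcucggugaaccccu
miR-376b-5p: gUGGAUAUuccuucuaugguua
miR-376b-3p: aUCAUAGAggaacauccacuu
miR-299a-5p: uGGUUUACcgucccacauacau
miR-299a-3p: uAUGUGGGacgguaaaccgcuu
miR-376a-5p: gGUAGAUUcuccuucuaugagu
miR-494-3p: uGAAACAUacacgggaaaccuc
miR-134-5p: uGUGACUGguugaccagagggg
Shown last are near-identical members, with at most 2 aligned bases different, that share a seed and so can share targets. Their reads can be exchanged in counting. The partner of miR-376c-5p, miR-376b-5p, is printed above. Also printed above, miR-381-3p and miR-300-3p are much alike but fall outside that limit.
miR-379-3p: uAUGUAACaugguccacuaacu
miR-411-3p: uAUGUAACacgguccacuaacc
miR-376c-5p: gUGGAUAUuccuucuauguuua

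Among the 54 members with a matched sequence, 3 seeds were held by more than 1 member. AUGUAAC was shared by miR-379-3p and miR-411-3p, which differed at 2 of 22 aligned bases. UGGAUAU was shared by miR-376b-5p and miR-376c-5p, which differed at 1 of 22. GGUUGUC was shared by miR-494-5p and miR-410-5p, both too rare to test. Outside the member list, miR-410-3p had its seed in common with miR-344d-3p and miR-344e-3p, and miR-411-5p with miR-7229-5p. Other members whose seed occurred outside the list were miR-379-5p, miR-299a-3p, miR-329-3p, miR-495-3p, miR-134-3p, miR-668-5p, miR-496a-5p and miR-377-5p. Both arms of miR-299a were identical over the aligned bases to those of miR-299b (0 differences in 21 and in 18 bases), and their separate levels are uncertain for that reason.

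Levels within the cluster spanned several orders of magnitude although the hairpins are neighbours. Mean levels over the 23 libraries, as CPM (counts scaled to a fixed total, on library sizes adjusted with TMM factors), ran from 0.795 CPM for miR-487b-5p to 6580 CPM for miR-411-5p, an 8278-fold range over the 52 tested members. CPM is not divided by length, since a read covers the whole mature miRNA. miR-411-5p made up 23.4% of all cluster reads, miR-381-3p 23.3%, miR-410-3p 17.2%, miR-541-5p 10.9% and miR-300-3p 10.3%. These 5 together held 81.2% to 90.2% of the cluster reads of a library. The next 3 were miR-409-3p at 524 CPM, miR-369-5p at 410 CPM and miR-487b-3p at 387 CPM. The first hairpin of the cluster was modest, with miR-379-5p at 90.8 CPM, and the last was high, with miR-410-3p at 4866 CPM. Level had little relation to position: Spearman's rho of the hairpin's order with the mean level was 0.14 over 52 members, which share the same libraries.

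**Figure D1:**
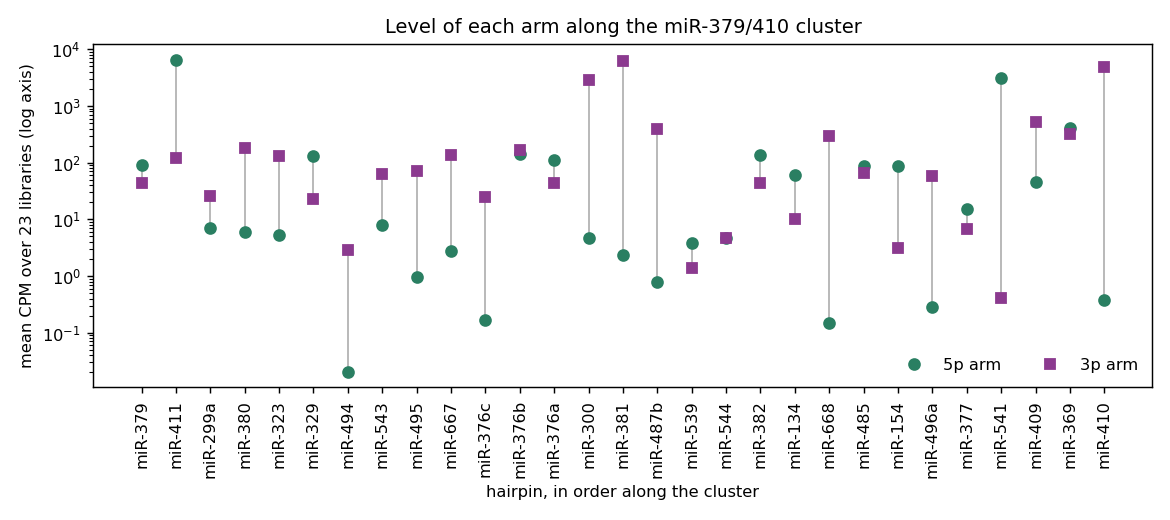
Mean level of the 5p arm (circles) and the 3p arm (squares) of each of the 29 hairpins, in CPM over 23 libraries on a log axis, with hairpins in their order along the cluster. miR-411-5p (6580 CPM) and miR-381-3p (6285 CPM) stand highest, and the more abundant arm changes from hairpin to hairpin.

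The cluster took 1.27% to 4.96% of the miRNA reads of a library, and this share differed by brain region. In wild type its mean was 4.64% ± 0.274 (SD, n = 3) in cortex, 4.22% ± 0.127 (SD, n = 3) in hippocampus, 2.22% ± 0.151 (SD, n = 3) in cerebellum and 1.35% ± 0.041 (SD, n = 3) in olfactory bulb. Over both genotypes the cortex and hippocampus libraries (3.85% to 4.96%) lay above every cerebellum library (2.11% to 2.39%), and these above every olfactory bulb library (1.27% to 1.60%). Cortex and hippocampus overlapped over both genotypes and not within wild type. The share of 1 cluster depends on what else is in a library, and in wild type olfactory bulb 7 miRNAs of the olfactory bulb and sensory list summed to 270193 to 299778 CPM. On the TMM scale, the summed level of the cluster in wild type cortex was 1.84-fold that of wild type olfactory bulb, against 3.45-fold as a share of reads. In bulk tissue, fewer cells of a type and fewer miRNAs per cell cannot be told apart.

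**Figure D2:**
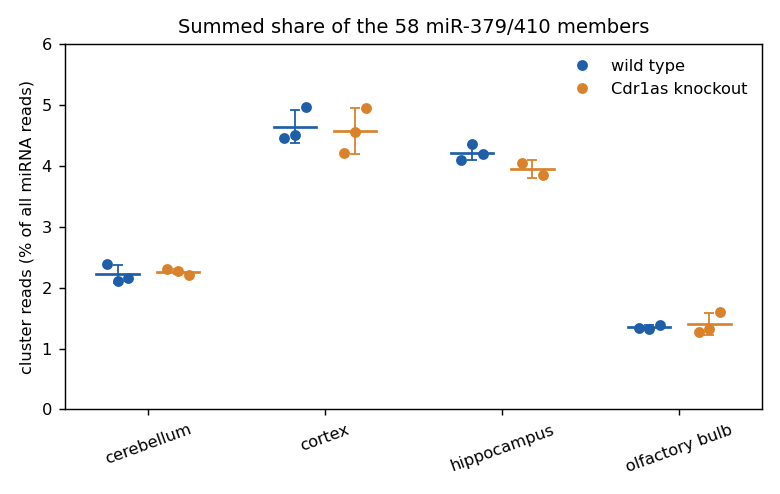
Share of all miRNA reads that fell on the 58 members, in percent, for each library (points) by region and genotype, with the group mean (line) and SD (bar). Cortex and hippocampus libraries lie between 3.85% and 4.96%, whereas those of olfactory bulb range from 1.27% to 1.60%, in both genotypes.

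Each wild type region was set against the mean of the other 3 on the log2 scale, to ask which members follow the region pattern of the whole. A member was called at an adjusted p below 0.05 with a difference of at least 2-fold. In cortex 6 of 52 members were higher (11.5%, against a background of 10% of all 669 miRNAs) and 0 lower (background 6.43%), and 49 of 52 differences were above 0. The median difference of the members was 0.56 on the log2 scale, against 0.01 over all miRNAs. In hippocampus 3 members were higher (background 9.27%) and 0 lower (background 8.07%), with a median of 0.33. In cerebellum 1 was higher (background 16.4%) and 5 were lower (background 17.8%), with a median of -0.33. In olfactory bulb 0 were higher (background 11.4%) and 11 were lower (21.2% of members, background 9.57%), with a median of -0.56. Among single calls the share was therefore near the background in cortex and below it in hippocampus and cerebellum, while the medians lay away from 0.

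The size of these differences depended on how libraries were scaled. With library size alone as the scaling, cortex had 32 members higher and 0 lower, hippocampus 19 and 0, cerebellum 0 and 19, and olfactory bulb 0 and 36. Over all 669 miRNAs the same scaling gave 169 higher and 6 lower in cortex, 155 and 26 in hippocampus, 63 and 176 in cerebellum and 34 and 223 in olfactory bulb. That scaling moved the median of all miRNAs by 0.51 in cortex, 0.54 in hippocampus, -0.40 in cerebellum and -0.67 in olfactory bulb. With upper quartile scaling the cerebellum calls were 3 higher and 3 lower, and the median member stood at 0.32 in cortex and 0.42 in hippocampus. A scaling moves members and other miRNAs together, so the distance between their medians is nearly fixed by construction. With TMM factors the median member stood at 0.55 in cortex, 0.32 in hippocampus, -0.35 in cerebellum and -0.52 in olfactory bulb relative to the median of all miRNAs.

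The knockout libraries, which are other samples, gave 6 members higher in cortex (background 7.62%), 4 higher and 0 lower in hippocampus (background 7.77% and 7.17%), 1 higher and 5 lower in cerebellum (background 16% and 17%, or 33% in either direction) and 9 lower in olfactory bulb (background 8.67%). All 6 cerebellum calls were made in both genotypes: miR-299a-5p, miR-369-5p, miR-376b-3p, miR-377-5p, miR-409-3p and miR-409-5p. In cortex 4 calls were shared, 66.7% of either list, and in hippocampus 2, which is 66.7% of the wild type and 50% of the knockout list. In olfactory bulb 7 were shared, 63.6% of the wild type and 77.8% of the knockout list. Sharing over all miRNAs was not counted, so it cannot be called particular to the members. Wild type cortex also carried miRNAs of the olfactory bulb and sensory list, at a sum of 3661 to 6785 CPM over 7 of 7 list members, against 141 to 443 CPM in knockout cortex. Choroid plexus and ciliated epithelium miRNAs summed to 11130 to 18358 CPM in wild type cerebellum, where 4 of 5 were called higher and 0 lower, against 2042 to 2973 in cortex (0 and 2), 3024 to 12977 in hippocampus (2 and 1) and 4069 to 5159 in olfactory bulb (1 and 2). In knockout hippocampus their sum was 3235 to 3518 CPM. The 3 red blood cell miRNAs summed to 32090 to 47207 CPM in wild type cerebellum and to 3651 to 10212 CPM in the other regions, with 1 of 3 called higher in cerebellum and 1 lower in each of cortex and hippocampus. No miRNA of these 3 lists was at 0 in all libraries of a group. Their part in the region differences was not tested.

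Members differed in how they ranked the regions. The highest wild type region was cortex for 30 of 52 members, hippocampus for 17, cerebellum for 3 and olfactory bulb for 2. The lowest was olfactory bulb for 30, cerebellum for 20, cortex for 2 and hippocampus for 0. The commonest pairing, cortex highest and olfactory bulb lowest, was held by 16 members, cortex highest and cerebellum lowest by 14, and hippocampus highest and olfactory bulb lowest by 11. In the knockout libraries 41 members had the same highest and 44 the same lowest region. Neighbours in the order were also compared, a choice made after seeing the data. Hippocampus differed from cortex in 1 member, miR-369-5p, with a log2 difference of -1.12 (background 6.73% lower and 3.59% higher). Without wild type hippocampus replicate 3 there were 2 such calls. Cerebellum lay below hippocampus in 10 members (background 16.1%) and above it in 1 (background 17.5%), with a median of -0.65. Olfactory bulb was below cerebellum in 5 (background 16.7%) and above in 1 (background 18.2%), with a median of -0.18, and without wild type olfactory bulb replicate 1 there were 10 calls in all.

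**Figure D3:**
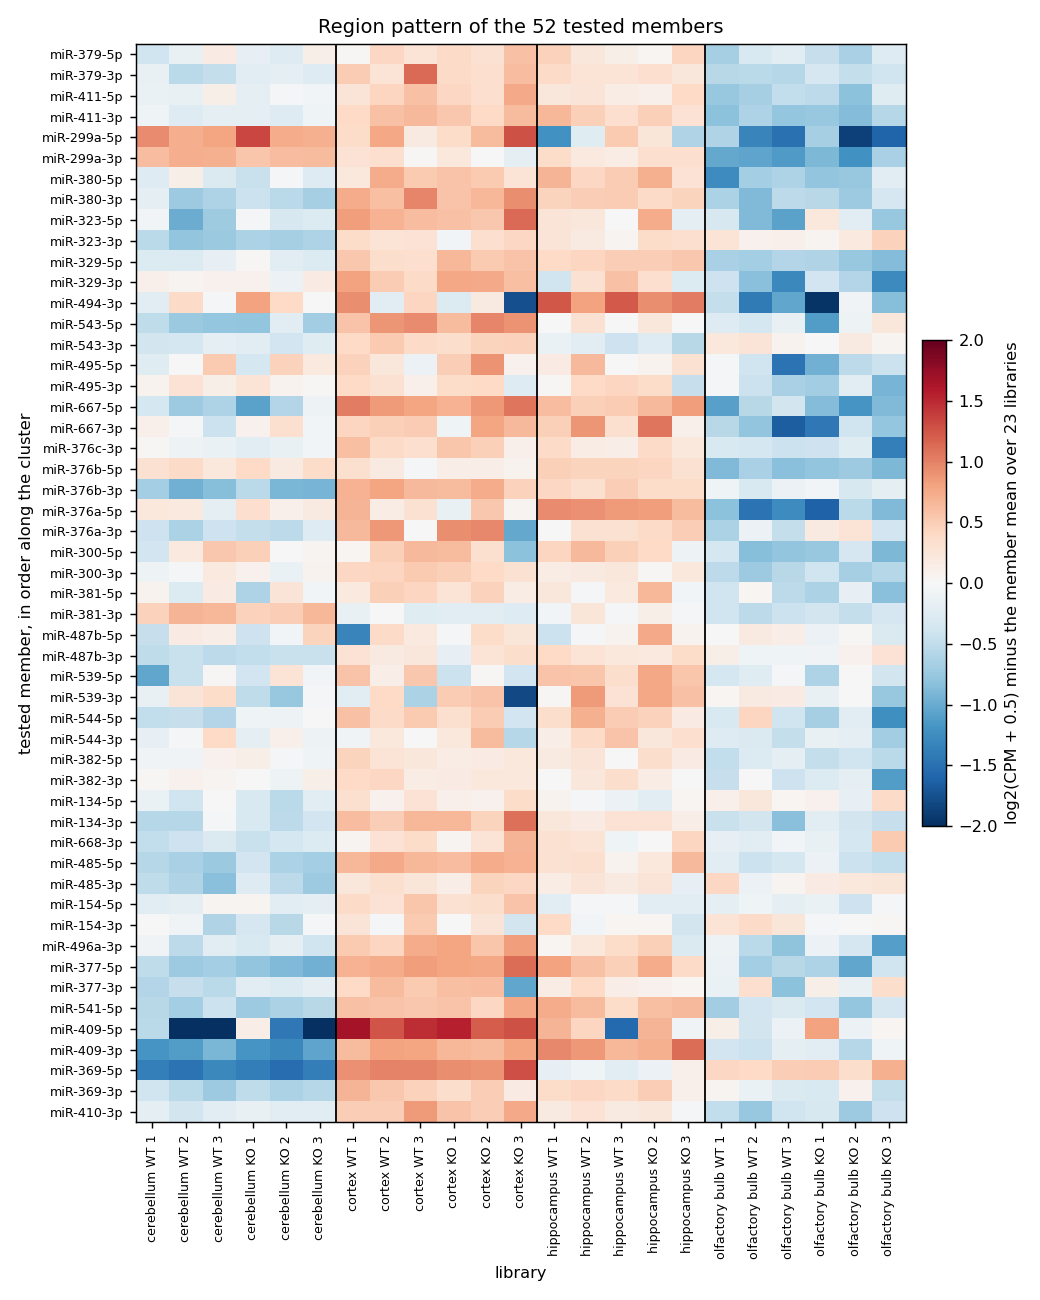
Log2(CPM + 0.5) of the 52 tested members (rows, in order along the cluster) in each of 23 libraries (columns), minus the member's mean over all libraries. Red is higher and blue lower, with colours saturating at a difference of 2. Cortex columns are mostly red and olfactory bulb columns mostly blue, and miR-369-5p, miR-409-5p, miR-299a-3p and miR-381-3p break the pattern in cerebellum or olfactory bulb.

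The abundant members did not share 1 region order. miR-411-5p was at 7542, 8525 and 9517 CPM in wild type cortex, at 7412, 7574 and 7019 in hippocampus, at 5751, 5708 and 6866 in cerebellum and at 3731, 3999 and 4468 in olfactory bulb. Its knockout values were 8415, 7967 and 10640 CPM in cortex, 6788 and 8312 in hippocampus, 5564, 6197 and 6048 in cerebellum and 4383, 3573 and 5347 in olfactory bulb. The regions keep the order of the cluster, and hippocampus overlaps its neighbours. miR-410-3p followed the same order, at 7115 CPM in wild type cortex and 3173 CPM in olfactory bulb on average, as did miR-300-3p (3830 and 1842 CPM). miR-541-5p was split into a high and a low pair, at 4219 CPM in cortex and 4303 CPM in hippocampus against 1953 CPM in cerebellum and 2096 CPM in olfactory bulb. None of these was called at 2-fold in cortex, where the log2 difference was 0.81 for miR-410-3p and 0.59 for miR-411-5p (edgeR adjusted p = 1.6e-06 and 2.1e-04).

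miR-381-3p, the second member by level, was highest in cerebellum. It was at 8298, 9735 and 9576 CPM in wild type cerebellum, at 5462, 6063 and 5107 in cortex, at 5809, 7136 and 5864 in hippocampus and at 4585, 4207 and 4490 in olfactory bulb. Knockout libraries had 8300, 8517 and 9569 CPM in cerebellum, 5229, 5164 and 5059 in cortex, 6602 and 5920 in hippocampus and 4702, 4342 and 4817 in olfactory bulb. All 6 cerebellum libraries exceeded all 17 others. The log2 difference of wild type cerebellum was 0.78 (SE 0.081, edgeR adjusted p = 4.2e-08), under the 2-fold limit.

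miR-369-5p, near the end of the cluster, had the largest region range of the members above 100 CPM. It was at 134, 123 and 140 CPM in wild type cerebellum, at 308, 325 and 296 in hippocampus, at 456, 454 and 486 in olfactory bulb and at 647, 685 and 686 in cortex. In knockout libraries it was at 131, 120 and 132 CPM in cerebellum, 316 and 369 in hippocampus, 492, 438 and 564 in olfactory bulb and 656, 643 and 837 in cortex. The 4 regions did not overlap in either genotype. It was lower in cerebellum by 1.79 on the log2 scale (SE 0.11, edgeR adjusted p = 6.1e-12) and higher in cortex by 1.33 (SE 0.088, adjusted p = 2.4e-10). Unlike the median member, it was higher in olfactory bulb than in cerebellum, by 1.81 (SE 0.12, adjusted p = 4.2e-11).

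Both arms of miR-409 were low in cerebellum. miR-409-3p was at 200, 208 and 241 CPM in wild type cerebellum, at 348, 335 and 394 in olfactory bulb, at 700, 790 and 786 in cortex and at 879, 824 and 714 in hippocampus. Its cerebellum difference was -1.48 (SE 0.12, edgeR adjusted p = 1.1e-09) and its hippocampus difference 1.05 (SE 0.1, adjusted p = 6.9e-08). miR-409-5p was at 108, 81.2 and 94.6 CPM in wild type cortex, at 36.7, 26 and 31.2 in olfactory bulb, at 54.4, 45.7 and 11.2 in hippocampus and at 23.2, 8.02 and 5.1 in cerebellum. It was called higher in cortex (log2 difference 1.97, SE 0.42, adjusted p = 5.2e-04) and lower in cerebellum (3.99-fold, SE 0.53 on the log2 scale, adjusted p = 0.0025). Its libraries varied more within groups than those of any other tested member, with an SD of 0.81 on the log2 scale against a median of 0.22 over the members.

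All 11 members called lower in olfactory bulb came from hairpins 1 to 18, which hold 34 of the 52 tested members. miR-299a-3p was at 36.2, 39.1 and 38.7 CPM in wild type cerebellum, at 28.7, 29.6 and 23.9 in cortex, at 30.2, 27 and 25.9 in hippocampus and at 11.3, 11 and 10.4 in olfactory bulb. Its olfactory bulb difference was -1.49 (SE 0.13, edgeR adjusted p = 3.1e-09), and the other arm, miR-299a-5p, was lower there by 1.53. miR-376a-5p was at 55.9, 35.1 and 41.4 CPM in wild type olfactory bulb, against 86.7 to 158 in cerebellum and cortex and 191, 187 and 178 in hippocampus. Its difference was -1.62 in olfactory bulb and 1.13 in hippocampus (SE 0.21 and 0.17, adjusted p = 1.3e-06 and 1.9e-05). miR-494-3p was rare throughout, at 1.5, 0.549 and 0.868 CPM in wild type olfactory bulb and 6.15, 4.4 and 6.06 CPM in hippocampus, and had a difference of -1.72 (SE 0.46, adjusted p = 0.0035) in olfactory bulb. The 8 other calls in olfactory bulb that were lower were miR-299a-5p, miR-380-5p, miR-667-5p, miR-667-3p, miR-376b-5p, miR-300-5p, miR-329-3p and miR-411-3p, with log2 differences from -1.53 to -1.03.

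The 3 members named for their place or their known synaptic roles stayed under the 2-fold limit in every region. miR-134-5p was nearly even, at 71 ± 6.04 CPM in wild type cortex, 65.8 ± 4.44 in olfactory bulb, 59.4 ± 4.01 in hippocampus and 53.7 ± 7.43 in cerebellum (SD, n = 3 each). Its log2 differences ran from -0.28 in cerebellum to 0.26 in cortex. miR-485-5p, which acts on synaptic vesicle genes, was at 130 ± 4.93 CPM in cortex, 94 ± 9.18 in hippocampus, 63.3 ± 4.47 in olfactory bulb and 50.6 ± 2.98 in cerebellum. Its cortex difference was 0.95 (SE 0.1, edgeR adjusted p = 3.0e-07). miR-379-5p was at 107 ± 12.9 CPM in hippocampus, 105 ± 14.2 in cortex, 81.5 ± 16.2 in cerebellum and 67.8 ± 10.8 in olfactory bulb, and its neighbours in that order overlapped.

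To ask which members left the pattern of the cluster itself, libraries were scaled so that the median log2 CPM of the members was equal in every library, and the 2-fold rule was applied again. That scaling levels the median level, and the median difference of the members was still 0.25 in hippocampus (44 of 52 above 0), -0.15 in cortex, -0.13 in olfactory bulb and -0.01 in cerebellum. A second scaling, by the median deviation of the members from their own means, was added after seeing the data and brought these medians to between -0.03 and 0.05. Both scalings follow the members, so they move all other miRNAs against the region shift of the cluster. With the first, the median of all miRNAs stood at -0.69 for wild type cortex and 0.41 for olfactory bulb. It was 0.36 for cerebellum and -0.05 for hippocampus. A share of members below such a background was thus partly fixed by construction, and no uniformity of the cluster follows from it. In wild type cerebellum the same 6 of 52 members departed with the first scaling (background 37.4% of all miRNAs) and with the second (38.7%). With the first, miR-299a-5p stood above the cluster by 1.47, miR-299a-3p by 1.24 and miR-381-3p by 1.10 on the log2 scale. miR-409-5p stood below it at -1.68, miR-369-5p at -1.48 and miR-409-3p at -1.17. All 6 departed in the same direction in knockout cerebellum, where the background was 39.3%. How many of all miRNAs departed in both genotypes was not counted.

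The departures in the other regions depended more on the scaling. In olfactory bulb 5 members departed with the first scaling (background 27.5%) and 3 of those with the second (30.5%). miR-369-5p was at 1.11 with the first and 1.19 with the second, miR-376a-5p at -1.19 and -1.06, and miR-494-3p at -1.38 and -1.17. The call was lost for miR-299a-3p, at -1.05 and -0.93, and for miR-299a-5p, at -1.17 and -0.97. In knockout olfactory bulb miR-369-5p and miR-299a-5p were called with the first scaling. In hippocampus 2 departed (background 16.4%) and 1 with the second scaling (20.5%): miR-494-3p, at 1.39 and 1.07, was called with both and also in knockout with the first, while miR-376a-5p went from 1.07 to 0.77. In cortex 2 departed (background 36.5%) and 1 with the second scaling (32%): miR-409-5p, at 1.28 and 1.39, was called with both, while miR-539-3p, a member at 1.37 CPM, went from -1.08 to -0.98. Neither was called in knockout cortex. The call of miR-539-3p was also lost without wild type cortex replicate 1 or 3 or wild type hippocampus replicate 2. With the summed count of the members as the scaling there were 5 departures in cerebellum and 1 in each of the other regions.

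Position along the cluster went with part of the region pattern, given here as a description because members share libraries. Among the 18 tested members of hairpins 19 to 29, which lie in Mirg, 18 were higher in wild type cortex than in cerebellum, with a median log2 difference of 0.95. Among the 34 of hairpins 1 to 18, 27 were, with a median of 0.49. Olfactory bulb against cerebellum had a median of -0.35 in the first group, where 9 of 34 members were above 0, and 0.28 in the second, where 12 of 18 were. In the knockout libraries these medians were -0.42 and 0.27. Spearman's rho of the hairpin's order with that difference was 0.51 in wild type and 0.49 in knockout (n = 52 members). For cortex against cerebellum it was 0.29 and 0.24, and for hippocampus against cerebellum 0.27 and 0.24, where the medians of the first and second group were 0.53 and 0.69 in wild type. The arms of 1 hairpin had region profiles about as far apart as those of neighbouring hairpins, with median root mean square differences of 0.34 over 23 pairs and 0.35 over 90 pairs, against 0.40 over 1213 pairs of hairpins further apart.

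Single members followed the median member to differing degrees over the 23 libraries. The median member is here the median level of the 52 tested members in each library, which members of middle level set. Pearson's r had a median of 0.63 and was at least 0.5 for 35 of 52 and at least 0.8 for 9. The closest were miR-496a-3p (0.93), miR-134-3p (0.90) and miR-323-5p (0.87). With a mean of 58.3 CPM, miR-496a-3p lies near the median level itself, so its high value was partly fixed in advance. It was under 0 for 3, the abundant miR-381-3p (-0.21) and the rare miR-539-3p and miR-487b-5p. The 10 other miRNAs whose level was most like the median member were miR-23a-3p (0.88), miR-450a-5p (0.87), miR-664-3p (0.86), miR-873a-5p (0.82), miR-770-5p (0.82), miR-337-5p (0.81), miR-330-3p, miR-1224-5p, miR-22-5p and miR-335-3p. Of these, miR-770-5p and miR-337-5p belong to the proximal miRNAs of the same imprinted domain.

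The choice of arm was fixed for most hairpins. The 3p arm had more reads in all 23 libraries for 15 of 29 hairpins and the 5p arm for 8. The most one-sided were miR-410, with 0.008% of its reads on the 5p arm, miR-381 (0.039%) and miR-541, with 99.99%. The abundant miR-411 had 98.2% of its reads on the 5p arm. In 6 hairpins the leading arm differed between libraries. The 5p arm led in 21 of 23 libraries for miR-376a, in 22 for miR-377, in 18 for miR-485 (with 1 tie), in 13 for miR-369, in 11 for miR-544 (with 1 tie) and in 6 for miR-376b.

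Arm balance differed between wild type regions for 8 of the 23 hairpins with both arms tested (34.8%, against a background of 26.8% of 198 hairpins), by limma on the log2 ratio of the arms. They were miR-376b (adjusted p = 2.7e-08), miR-369 (9.7e-05), miR-134 (8.7e-04), miR-485 (0.0059), miR-323 (0.010), miR-544 (0.013), miR-543 (0.024) and miR-376a (0.035). The knockout libraries also gave 8 (background 27.3%), of which 6 were the same (75% of either list): miR-376b, miR-369, miR-134, miR-485, miR-543 and miR-376a. Sharing over all 198 hairpins was not counted.

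miR-376b changed its leading arm between regions. The 5p arm took 63.8%, 69.1% and 64.8% of its reads in wild type cerebellum, 47.9%, 48.8% and 46.1% in hippocampus, 40.3%, 36.7% and 35.5% in cortex and 33.5%, 40.8% and 34.8% in olfactory bulb. In knockout it took 62.7%, 65.2% and 68.3% in cerebellum, 48.0% and 45.7% in hippocampus, 38.4%, 36.6% and 40.2% in cortex and 34.4%, 39.6% and 35.0% in olfactory bulb. The 6 cerebellum libraries were the only ones above 50%, and cortex and olfactory bulb overlapped. The mean ratio of the arms ranged 3.39-fold over the wild type regions. In wild type cerebellum miR-376b-3p had a log2 difference of -1.15 (SE 0.11, edgeR adjusted p = 9.3e-09) and miR-376b-5p of 0.36 (SE 0.086, adjusted p = 0.0011), the latter under the 2-fold limit. The near-identical miR-376c-5p had 35 reads in all, against a mean of 142 CPM for miR-376b-5p.

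miR-369 went nearly the other way. Its 5p arm took 36.2%, 36.6% and 42.9% of the reads in wild type cerebellum, 43.4%, 44.1% and 42.4% in hippocampus, 56.7%, 60.3% and 61.7% in cortex and 58.8%, 61.6% and 65.8% in olfactory bulb. The knockout shares were 37.7%, 37.6% and 38.8% in cerebellum, 41.9% and 52.6% in hippocampus, 62.3%, 59.6% and 70.7% in cortex and 66.3%, 57.1% and 71.7% in olfactory bulb. Cerebellum and hippocampus lay below cortex and olfactory bulb in both genotypes. For miR-134 the 5p arm always led, with 82.3% to 83.4% in wild type cortex and 90.3% to 92.2% in olfactory bulb. For miR-485 it took 62.5% to 62.9% in wild type cortex and 44.3% to 50% in olfactory bulb.

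**Figure D4:**
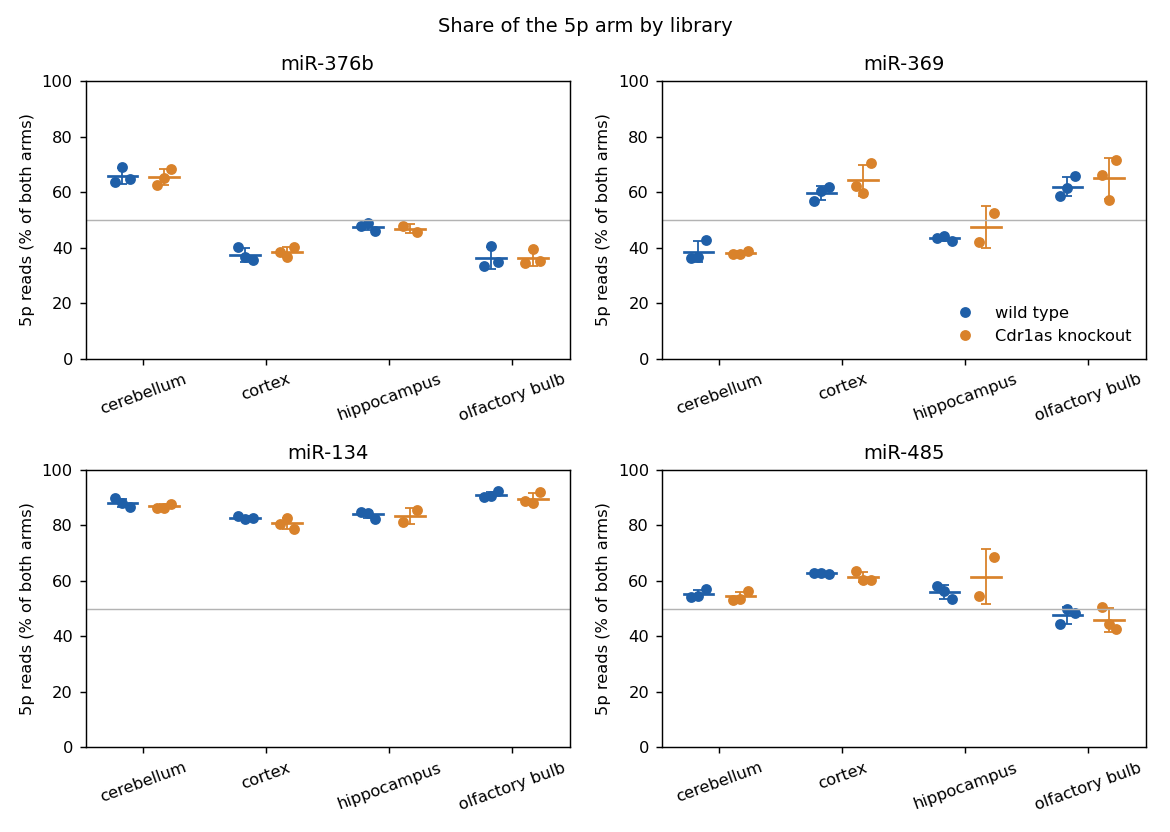
Reads on the 5p arm as a percentage of the reads on both arms, for the 4 hairpins with the smallest p between regions, in each library (points) by region and genotype, with group mean (line) and SD (bar). The grey line is at 50%. miR-376b lies above it in cerebellum alone. miR-369 lies above it in cortex and olfactory bulb, and in knockout hippocampus replicate 3 (52.6%).

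Knockout and wild type were compared within each region, to ask whether loss of Cdr1as changed the cluster. The shares of reads were close: 4.57% ± 0.373 (SD, n = 3) in knockout cortex, 3.95% ± 0.144 (n = 2) in hippocampus, 2.26% ± 0.0469 (n = 3) in cerebellum and 1.40% ± 0.179 (n = 3) in olfactory bulb. Each overlapped wild type except in hippocampus, where knockout lay at 3.85% and 4.05% and wild type at 4.10% to 4.35%. On the TMM scale the summed level in hippocampus did overlap, at 30898 and 31449 CPM in knockout and 29726 to 33035 CPM in wild type. By edgeR's quasi-likelihood test at an adjusted p of 0.05, 0 of 52 members were called in cerebellum (background 0.149%), in the olfactory bulb (0.149%), in cortex (2.09%), in hippocampus (0%), in the mean of the 4 regions (1.49%) or in the test of whether the effect differed between regions (1.64%). DESeq2 also called 0 in each. At an unadjusted p below 0.05 there was 1 member in cortex and 1 in the test between regions, miR-539-5p in both, and 0 in each other comparison. Over all 669 miRNAs those counts were 31 in cortex, 26 in the test between regions, 13 in cerebellum, 39 in hippocampus, 20 in olfactory bulb and 39 in the mean of the 4 regions. The median log2 difference of the members was -0.03 in cortex, -0.02 in hippocampus, 0.00 in olfactory bulb and 0.01 in cerebellum.

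The intervals give the range of differences these libraries leave room for. In the mean of the 4 regions the log2 differences ran from -0.26 to 0.30, and the 95% interval lay within 0.5 either side of 0 for 43 of 52 members and within 1 for 52. The most abundant members had intervals within 0.5 either side of 0, and the less abundant miR-134-5p and miR-485-5p had intervals of similar width. miR-411-5p differed by 0.05 (95% interval -0.10 to 0.20), miR-381-3p by -0.03 (-0.14 to 0.08), miR-410-3p by -0.0023 (-0.14 to 0.13), miR-541-5p by -0.01 (-0.16 to 0.13) and miR-300-3p by -0.02 (-0.13 to 0.09). miR-134-5p differed by -0.08 (-0.23 to 0.08) and miR-485-5p by 0.07 (-0.07 to 0.22). In single regions the intervals were wider, and the interval lay within 1 for 42 of 52 members in olfactory bulb to 48 of 52 in hippocampus.

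The members with the smallest p were mostly rare. miR-539-5p was at 5.51, 3.93 and 5.43 CPM in wild type cortex and at 2.53, 3.64 and 2.61 CPM in knockout cortex. The groups did not overlap there, as for 2 of 52 members that were lower in knockout cortex in every library (background 4.78%), and the log2 difference was -0.71 (SE 0.28, edgeR adjusted p = 0.63). In cerebellum its difference was 0.44, with 1.48, 2.49 and 3.61 CPM in wild type and 2.62, 4.42 and 3.39 CPM in knockout. In that region miR-544-5p (0.52) and miR-539-3p (-0.77) also ranked lowest by p, with none below 0.05 before adjustment by edgeR. The same held for miR-494-3p (-0.84) and miR-329-5p (0.18) in cortex. It held for miR-487b-5p (0.88), miR-485-5p (0.21) and miR-323-3p (0.18) in hippocampus, and for miR-544-5p (-0.54), miR-377-5p (-0.34) and miR-323-5p (0.58) in olfactory bulb. In the mean of 4 regions the lowest by p were miR-154-3p (-0.26), miR-323-5p (0.30) and miR-377-5p (-0.13), with a smallest edgeR adjusted p of 0.81. None of these passed.

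**Figure D5:**
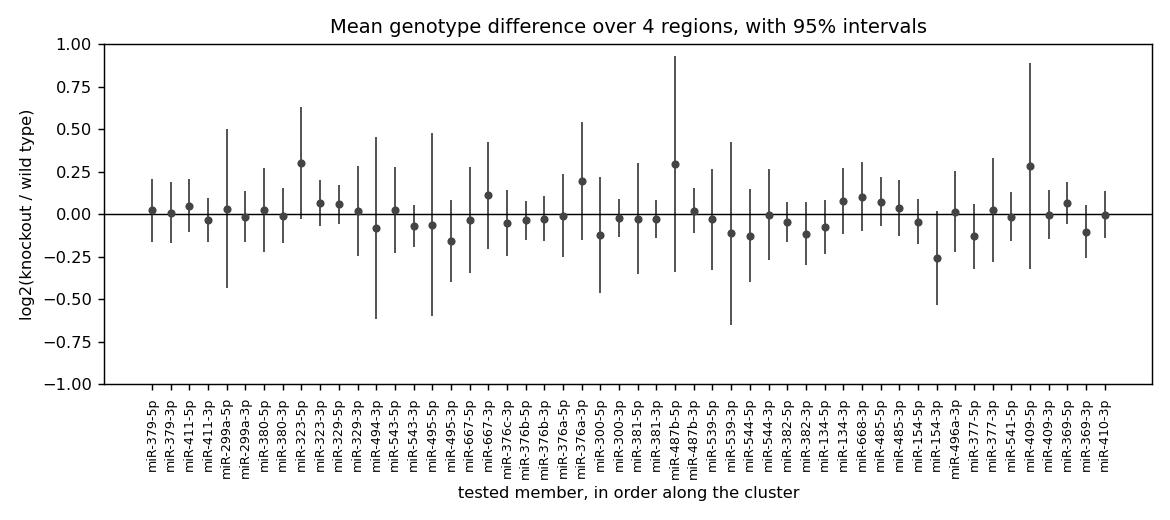
Log2 ratio of knockout to wild type, averaged over the 4 regions, for the 52 tested members in order along the cluster, with 95% intervals from edgeR's quasi-likelihood fit. Estimates lie between -0.26 and 0.30, and every interval lies within 1 either side of 0.

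Arm balance did not pass the test between genotypes for any hairpin: 0 of 23 in the cluster and 0 of 198 in the whole table (background 0%), by limma at an adjusted p of 0.05, with 0 and 8 at an unadjusted p below 0.05. The smallest p-values in the cluster belonged to miR-134 (log2 change of the ratio -0.16, SE 0.1), miR-369 (0.17, SE 0.11) and miR-154 (0.22, SE 0.16), all with an adjusted p of 0.97.

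Other miRNAs of the Dlk1-Dio3 domain had median differences of the same sign as those of the cluster in each region, with TMM factors. Of 26 tested arms of the proximal miRNAs of the domain, from miR-770 to miR-370, 2 were higher and 1 lower in wild type cortex (background 10% and 6.43%), 4 higher and 0 lower in hippocampus (9.27% and 8.07%), 1 higher and 4 lower in cerebellum (16.4% and 17.8%) and 0 higher and 3 lower in olfactory bulb (11.4% and 9.57%). Their median log2 differences were 0.61, 0.49, -0.49 and -0.56, against 0.56, 0.33, -0.33 and -0.56 in the cluster. Their summed level, in contrast, was higher in wild type cerebellum (41016 to 45168 CPM) than in cortex (35138 to 37193 CPM). The abundant miR-127-3p differed by 1.49 in cerebellum and -1.25 in cortex, opposite in sign to the medians. Of 10 tested arms of other hairpins between miR-379 and miR-410, such as miR-758, 3 were higher and 0 lower in cortex, 2 and 0 in hippocampus, 1 and 3 in cerebellum and 0 and 4 in olfactory bulb, beside the same background. Their medians were 0.70, 0.71, -0.64 and -0.74. This list of other hairpins includes miR-299b, whose arms are identical to those of the member miR-299a over the aligned bases. Mean levels were 25.5 CPM for both miR-299b-3p and miR-299a-3p, so miR-299b is not independent of the members. In each list 0 were called between genotypes in any region.

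The 3 neuronal miRNAs did not move as 1 group. miR-9-5p and miR-124-3p had log2 differences of 0.39 and 0.78 in wild type cerebellum and of -0.63 and -0.50 in cortex, opposite in sign to the median member. miR-128-3p was at -1.04 in cerebellum and 0.70 in cortex, with the sign of the median member. All 3 were above 0 in olfactory bulb, at 0.73, 0.51 and 0.55.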

How the data were processed

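Per the labels' protocols, TRIZOL was used for extraction and a TruSeq kit for the small RNA libraries. For each library the authors deposited a table of raw counts, with 1 row per mature miRNA. The submitters' processing notes name the build mm9. Aligner, counting program and miRNA annotation: not given in the sources used here. Totals ran from 2328929 to 13070794 counts. Reads are PCR copies with no molecular identifier, and depth therefore speaks for counting error only. In R 4.3.3, miRNAs were kept by filterByExpr of edgeR 4.0.16 (minimum count 10, minimum total 15), leaving 669 of 1459 with a count. One quasi-likelihood model with TMM factors and 8 group means was fitted to 23 libraries, and p-values were adjusted by Benjamini-Hochberg over all 669. Arm ratios (0.5 added to each count) were tested with limma 3.58.1 over 198 hairpins. DESeq2 1.42.0, other scalings (1 of them, by the median deviation of the members, added after seeing the data), no filter, a replicate block, knockout libraries for the region contrasts and leaving out each library were tried. Simulated data were called at an adjusted p below 0.05 with no fold limit. Of 100 miRNAs changed 2-fold, 81% were recovered in knockout against wild type cortex and 91% in wild type cortex against the other regions. False calls in these comparisons numbered 7 and 11. The 91% does not cover the 2-fold limit of the region calls. Arm shifts of 2-fold were recovered for 37.5% of 40.

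Members named are the 8 most abundant, those called or with the smallest p, those that depart from the cluster, the first and last hairpin, miR-134-5p and miR-485-5p. The members and lists were chosen with earlier results of these data known. Within groups, no 2 libraries were duplicates (chi-square per degree of freedom from 28.6 to 262 over 22 pairs). The deviations of same-numbered wild type and knockout libraries had correlations of 0.10, 0.39 and 0.12 in cerebellum and -0.02, 0.16 and 0.13 in cortex. They were 0.01 and -0.22 in hippocampus and -0.05, -0.03 and 0.13 in olfactory bulb. These values do not settle whether the numbers pair libraries in any region.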

Additional observations from a re-analysis of the deposited data

How the results depend on the processing

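The counts of members called between genotypes were 0 under every alternative run, the replicate block included, and with each library left out, and for arm ratios between genotypes likewise. Among the region comparisons, library size alone as the scaling gave 32 calls in cortex (6 with TMM), 19 in hippocampus (3), 19 in cerebellum (6), 36 in olfactory bulb (11), 35 in cerebellum against hippocampus (11) and 11 in olfactory bulb against cerebellum (6). Over all 669 miRNAs it gave 40 higher and 243 lower in cerebellum against hippocampus. In olfactory bulb against cerebellum it gave 101 and 140. Upper quartile scaling gave 3 in cortex, 0 in hippocampus against cortex (1 with TMM) and 11 in olfactory bulb against cerebellum. Over all 669 miRNAs those comparisons had 43 higher and 87 lower, 53 and 31, and 91 and 159. In hippocampus against cortex there were 2 calls with no filter on low counts and 2 with the replicate block, which moved no other count by over 1.5 times. With the summed count of the members as the offset, departures from the cluster numbered 1 in cortex (2 with the median member), 1 in hippocampus (2) and 1 in olfactory bulb (5). With the median deviation of the members as the offset, added after seeing the data, they numbered 3 in olfactory bulb, 1 in hippocampus and 1 in cortex. In knockout libraries, with the median level of the members made equal, they numbered 5 in hippocampus and 3 in olfactory bulb.

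Leaving out each library in turn gave 5 to 7 calls in cortex, 2 to 3 in hippocampus, 5 to 9 in cerebellum, 10 to 12 in olfactory bulb, 8 to 11 in cerebellum against hippocampus, 1 to 2 in hippocampus against cortex and 6 to 10 in olfactory bulb against cerebellum. Departures ranged from 6 to 6 in cerebellum, 1 to 2 in cortex, 2 to 3 in hippocampus and 4 to 6 in olfactory bulb, and arm ratios between regions from 6 to 9. Of the values for single named members under an alternative, 2461 kept direction and call, 91 lost the call and 1 reversed: miR-485-5p, knockout vs wild type, hippocampus, at -0.0438 without knockout hippocampus replicate 3 and at 0.42 without replicate 2 (0.21 with both), a comparison not called in any of these. The cause was not tested. Depth limits the members under about 1 CPM, and knockout hippocampus rests on 2 libraries.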

Other observations

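miR-409-5p had the widest spread within groups of the tested members, and over 333 miRNAs with a mean of at least 20 CPM its spread ranked 4. The pattern was looked at after its values were seen and is given as a description. In cerebellum it was at 23.2, 8.02 and 5.1 CPM in wild type and 37, 12.2 and 5.57 CPM in knockout, and in hippocampus at 54.4, 45.7 and 11.2 CPM in wild type. Its deviations from the group means over the 23 libraries were most like those of miR-501-3p (Pearson's r 0.97), miR-99b-5p (0.95) and miR-100-5p (0.90). Those 3 are not members of the cluster. The miRNA with the next highest value was miR-212-5p (0.66). The opposite arm, miR-409-3p, did not share these deviations (-0.04).

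The 4 mature sequences hold the same 5 letters, ACCCG, near their 5′ end, marked in capitals here. They are shown as the miRNAs whose deviations were most alike.
miR-409-5p: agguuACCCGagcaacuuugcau
miR-501-3p: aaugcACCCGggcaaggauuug
miR-99b-5p: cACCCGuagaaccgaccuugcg
miR-100-5p: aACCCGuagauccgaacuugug
Of 279 miRNAs at that level with a matched RefSeq sequence, 6 held ACCCG on the given strand (2.15%). The other two were miR-99a-5p, where it starts at base 2 and r was 0.47, and miR-342-3p, where it starts at base 18 and r was -0.11. The letters were read from miR-409-5p and from the 3 miRNAs picked for their likeness to it, so their values do not bear on the motif; only miR-99a-5p and miR-342-3p were not so chosen. In wild type hippocampus miR-99b-5p was at 2712, 2850 and 1502 CPM and miR-501-3p at 33.1, 29.7 and 13.2 CPM, low in the same library, replicate 3, as miR-409-5p. Depth in these libraries was between 7217821 and 9481613 counts. What sets these deviations was not tested.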
